A study of Homo sapiens with 6 samples.

Results

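The 43 genes described here encode proteins that copy the genome or carry the cell through mitosis, and they were measured in the human ovarian carcinoma cell lines Caov-3 and SKOV-3. They were chosen by name, with 20 assigned to DNA replication and 23 to mitosis, out of 19775 genes that the arrays measure through a probe set with 1 gene symbol. All 43 passed the filter on dim genes, which 12290 genes passed, and 40 of them lay above the 75th percentile of their array on all 6 arrays, as did 5362 of all genes that passed. The array carries 87 probe sets for them, and a gene was read through its brightest probe set, which leaves 44 further probe sets of 25 genes as a second reading of the same transcripts.

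The study asked how siltuximab (CNTO328), an antibody that binds interleukin 6 (IL-6), alters what IL-6 does to gene expression in ovarian cancer cells. Each line was given siltuximab for 4 h followed by IL-6 at 30 ng/ml for 1 h, IL-6 at 30 ng/ml alone for 1 h, or nothing, and total RNA was hybridised to Affymetrix U133 Plus 2.0 arrays. RNA of 3 flasks was pooled for each array, so each of the 6 groups is 1 array, with no replicate behind it. The labels used here state no siltuximab dose, and cells given only the antibody were not analysed here. The values are MAS5 signals on a linear scale, scaled by array. Signals of different genes come from different probes and are not compared with each other, and a bulk signal cannot tell fewer cells in a phase from less RNA per cell.

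Replication genes and mitosis genes are transcribed at different times of the division cycle. Genes for the replication machinery are known targets of E2F transcription factors at the passage from G1 into S phase, whereas many mitotic genes are released later, in G2, by the MuvB complex with B-MYB and FOXM1 acting through a promoter element called the cell cycle genes homology region (CHR). IL-6 signals through the receptor chain gp130 to STAT3, whose known targets include genes of growth and survival.

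The promoters were searched for the letters of these elements. They were taken from RefSeq (build GRCh38.p14) as 250 bases before to 50 bases after the annotated start, and were found for 17 replication and 18 mitosis genes. Both strands were searched for TTCCCGC or TTGGCGC (E2F), TTTGAA (CHR) and CCAAT (the box bound by NF-Y). The reverse complement of CCAAT is ATTGG, which can share letters with TTGGCGC. An E2F match was present in 13 of the 17 replication promoters (76.5%) and in 2 of the 18 mitosis promoters (11.1%), against 9.33% of all 27305 promoters in the table. A CHR match was present in 11 of the 18 mitosis promoters (61.1%) and in 1 of the 17 replication promoters (5.88%), against 15.4% of all promoters. CCAAT was found in 14 mitosis promoters (77.8%) and 11 replication promoters (64.7%), against 35.7% of all. Lists of further genes of the pathways held E2F matches in 48.6% of 37 replication promoters and 33.3% of 51 mitosis promoters, and CHR matches in 2.70% of these replication promoters and 70.6% of these mitosis promoters. A match is a description of the letters and not a shown binding site.

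The 5 promoters printed here belong to genes on which the results below turn, CDC6, MCM3, TOP2A and PLK1 by their difference between the lines and MAD2L1 by its IL-6 fold. All 5 hold a match, which not every such gene does. Of the mitosis genes with a promoter that are called lower in Caov-3 below, 7 hold a CHR match. The others, CCNA2, CCNB1, AURKB, KIF20A and CENPE, hold none. In the printed promoters, capitals mark the E2F matches in CDC6 and MCM3 and the CHR matches in TOP2A, PLK1 and MAD2L1. The sequences run 5′ to 3′ along the gene.
CDC6 (GRCh38.p14, chr17:40287629-40287928, plus strand): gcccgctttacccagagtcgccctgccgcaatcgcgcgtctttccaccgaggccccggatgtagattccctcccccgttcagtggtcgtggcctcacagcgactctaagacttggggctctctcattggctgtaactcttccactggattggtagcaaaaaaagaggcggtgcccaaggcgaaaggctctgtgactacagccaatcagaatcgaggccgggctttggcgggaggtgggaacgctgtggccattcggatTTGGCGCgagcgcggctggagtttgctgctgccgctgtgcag
MCM3 (GRCh38.p14, chr6:52284693-52284992, minus strand): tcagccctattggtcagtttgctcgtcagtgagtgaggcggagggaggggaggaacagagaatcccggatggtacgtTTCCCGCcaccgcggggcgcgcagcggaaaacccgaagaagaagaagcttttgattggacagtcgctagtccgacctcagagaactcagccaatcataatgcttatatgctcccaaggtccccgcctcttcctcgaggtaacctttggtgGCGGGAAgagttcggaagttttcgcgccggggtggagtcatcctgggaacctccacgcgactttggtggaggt
TOP2A (GRCh38.p14, chr17:40417847-40418146, minus strand): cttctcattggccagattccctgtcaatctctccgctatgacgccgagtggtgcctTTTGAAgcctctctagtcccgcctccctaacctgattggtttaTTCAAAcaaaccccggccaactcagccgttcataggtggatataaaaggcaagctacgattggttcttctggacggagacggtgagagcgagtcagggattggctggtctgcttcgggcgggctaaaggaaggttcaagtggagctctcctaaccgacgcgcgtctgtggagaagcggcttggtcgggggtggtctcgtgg
PLK1 (GRCh38.p14, chr16:23678639-23678938, plus strand): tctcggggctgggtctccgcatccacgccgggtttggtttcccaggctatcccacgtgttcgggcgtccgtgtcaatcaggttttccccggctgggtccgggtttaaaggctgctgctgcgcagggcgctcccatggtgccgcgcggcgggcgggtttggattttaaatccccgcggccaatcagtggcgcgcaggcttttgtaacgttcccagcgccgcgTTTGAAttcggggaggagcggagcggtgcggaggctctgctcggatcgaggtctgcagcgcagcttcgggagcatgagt
MAD2L1 (GRCh38.p14, chr4:120066799-120067098, minus strand): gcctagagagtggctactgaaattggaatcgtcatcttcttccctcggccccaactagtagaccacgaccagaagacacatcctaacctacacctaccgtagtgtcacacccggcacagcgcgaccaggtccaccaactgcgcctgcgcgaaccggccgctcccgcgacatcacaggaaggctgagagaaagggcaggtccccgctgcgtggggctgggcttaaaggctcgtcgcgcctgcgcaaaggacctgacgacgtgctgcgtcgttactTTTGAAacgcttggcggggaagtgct
Counted from the annotated start, the E2F match of CDC6 begins at base 9, and those of MCM3 begin at bases -173 and -23. The CHR matches begin at bases -194 and -151 in TOP2A, at base -29 in PLK1 and at base 25 in MAD2L1.

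**Figure D1:**
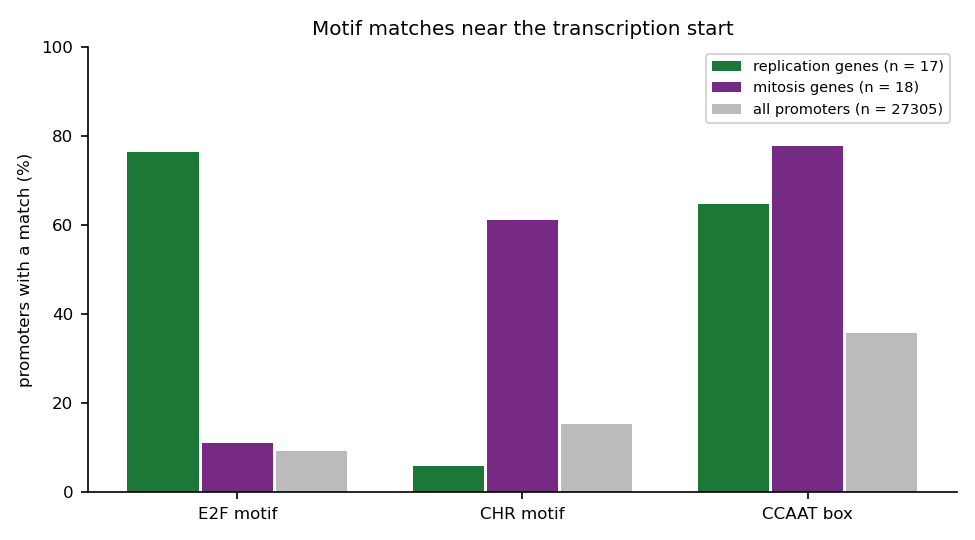
Share of promoters (percent, vertical axis) that hold at least 1 match to the E2F, CHR or CCAAT letters, for replication genes, mitosis genes and all promoters in the RefSeq table. E2F matches stand at 76.5% in replication promoters and 11.1% in mitosis promoters, and CHR matches at 5.88% in replication promoters and 61.1% in mitosis promoters.

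Before the comparisons, the arrays themselves were checked. Their trimmed means were all about 500 (500.06 to 500.07) and their medians lay between 72.8 and 89.8. On the Caov-3 IL-6 array the 5′ to 3′ signal ratio of ACTB was 0.494, against 0.643 to 0.767 on the other 5 arrays, and the spiked poly-A controls stood at 1.54 times the untreated array in Caov-3 and 1.55 times in SKOV-3 after IL-6. Keratins KRT8 and KRT18 were high in both lines, while of the 8 epithelial markers KRT19 and CDH1 reached at most 57.9 and 27.5 in SKOV-3. The other epithelial markers lay there at 6840 to 8758 for KRT7, 1728 to 2223 for EPCAM, 495 to 662 for CLDN4 and 210 to 311 for MUC1. Of the 5 ovarian carcinoma markers MUC16 and MSLN reached at most 5.90 and 28.5 in SKOV-3, and WT1 at most 19.3 on any array. PAX8 lay at 495 to 683 in SKOV-3 and 971 to 1056 in Caov-3, and SOX17 at 19.2 to 32.0 and 77.8 to 132. Summed leukocyte markers (5 of 7 measured, 2 past the filter) ranged from 854 to 936 in Caov-3 and from 332 to 601 in SKOV-3. CD14 lay at 573 to 667 in Caov-3 and 77.6 to 135 in SKOV-3, CD79A at 149 to 201 in Caov-3 and 180 to 344 in SKOV-3, and PTPRC at most 35.1 on any array. Summed fibroblast and endothelium markers (8 measured, 2 past the filter) ranged from 4916 to 5907 in Caov-3 and from 543 to 727 in SKOV-3, of which COL1A1 made up 3802 to 4826 in Caov-3 and 217 to 339 in SKOV-3. PECAM1 lay at 331 to 1162 in Caov-3 and 125 to 176 in SKOV-3, while COL1A2 was at most 42.4 on any array. The part of these marker levels in the line differences below was not tested.

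Most mitosis genes had lower signals in Caov-3 than in SKOV-3, and the replication genes did not share a direction. Of 23 mitosis genes, 15 (65.2%) were lower in Caov-3 and 3 (13.0%) were higher, while of 20 replication genes 6 were lower, 6 higher and 8 not called. Among all 12290 genes, 32.3% were called lower and 38.6% higher, so the share of replication genes lower is close to the background and the share of mitosis genes lower stands above it. Calls come from limma on log2 signals with treatment as a factor, over 6 arrays, at a Benjamini-Hochberg adjusted p under 0.05. The median log2 difference, Caov-3 minus SKOV-3, was -0.66 for mitosis genes, 0.00 for replication genes and 0.07 for all genes. By treatment, the mitosis median was -0.77 with siltuximab plus IL-6, -0.56 with IL-6 and -0.64 untreated, and the replication median was -0.06, -0.03 and 0.05 in that order. Of the mitosis genes, 15 had all 3 Caov-3 arrays below all 3 SKOV-3 arrays (34.1% of all genes) and 2 had them above (40.0% of all genes). For replication genes these counts were 6 and 6. The 3 arrays of a line are 3 treatments and not replicates. When 1 array is left out, its partner in the other line adds nothing to the line difference. Leaving out either array of a treatment thus gives the same line difference, and the 2 are not separate checks. With 1 array left out at a time, 14 to 17 mitosis genes were called lower, against 27.1% to 33.2% of all genes. Without the Caov-3 IL-6 array the count was 17, against 33.2% of all genes.

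**Figure D2:**
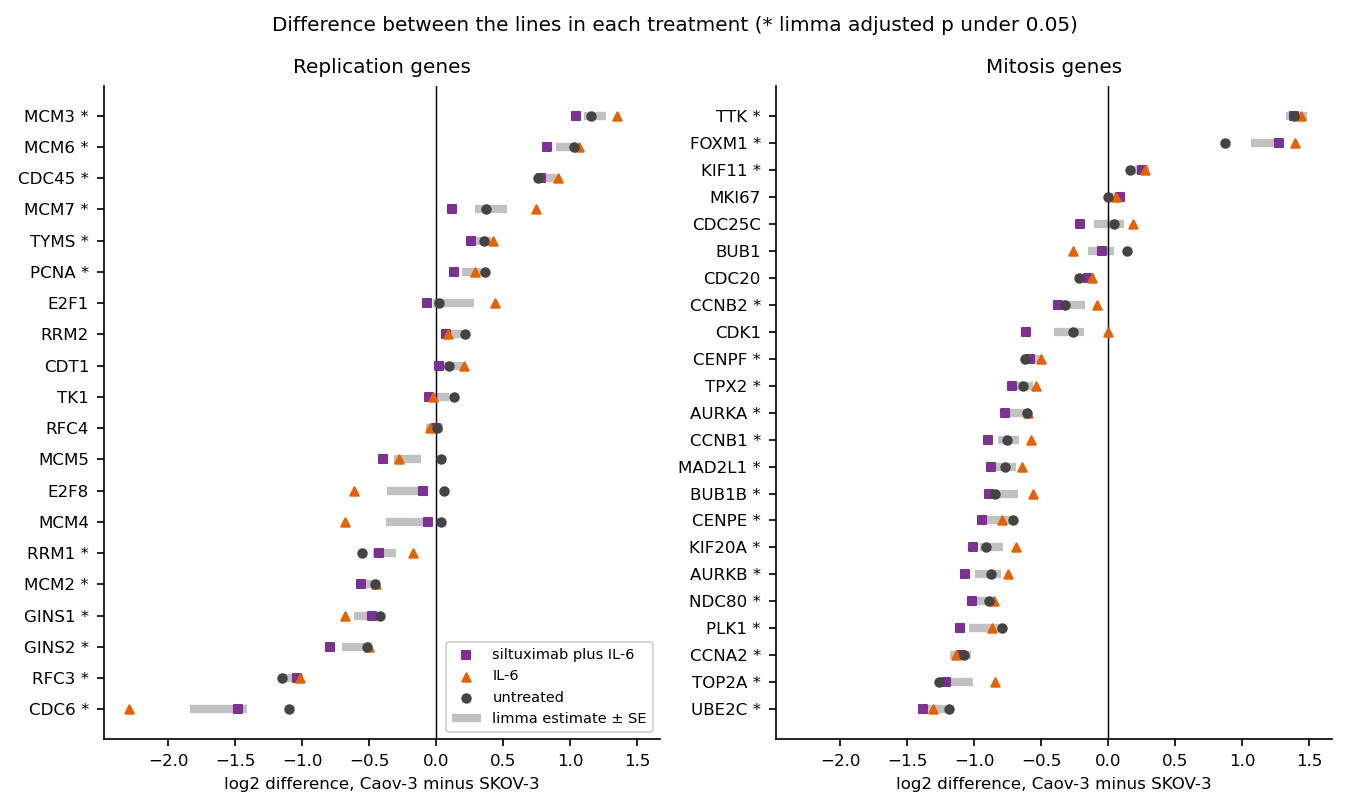
Log2 difference of Caov-3 minus SKOV-3 (horizontal axis) for each replication gene and mitosis gene, with 1 point per treatment and a grey bar for the limma estimate ± SE over 6 arrays. Stars mark the 12 replication and 18 mitosis genes called by limma, and 15 mitosis genes with a star lie left of 0.

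The replicative helicase showed both directions within 1 complex. MCM2 to MCM7 form a ring of 6 subunits that unwinds DNA, and CDC45 and the GINS complex switch it on. In every set of values here and below, the arrays stand in the order siltuximab plus IL-6, IL-6 and untreated. MCM3 had signals of 8463, 9424 and 7997 in Caov-3, against 4093, 3694 and 3581 in SKOV-3. MCM6 had 9666, 11349 and 10641 in Caov-3, against 5449.6, 5408 and 5221 in SKOV-3. Every Caov-3 array lay above every SKOV-3 array for both subunits, by a log2 difference of 1.18 (SE 0.0822, limma adjusted p = 1.9e-05) for MCM3 and 0.97 (SE 0.0762, adjusted p = 3.19e-05) for MCM6. MCM2 had 4156, 4209 and 4646 in Caov-3, against 6152, 5756 and 6381 in SKOV-3, and was thus lower in Caov-3 on all arrays, at -0.49 (SE 0.0709, adjusted p = 0.000652). MCM7 had 5548, 6395 and 6085 in Caov-3, against 5115, 3810.5 and 4705 in SKOV-3, a difference of 0.41 (adjusted p = 0.0177) that was not called when either untreated array was left out (0.43). MCM4 and MCM5 were not called, at -0.24 (adjusted p = 0.164) and -0.21 (adjusted p = 0.094), and their arrays overlapped, though MCM5 was called lower when either untreated array was left out (-0.34). CDC45 had 3323, 3606 and 3248 in Caov-3, against 1929.8, 1910.3 and 1914 in SKOV-3, higher in Caov-3 by 0.82 (SE 0.0809). The GINS subunits went the other way: GINS1 had 3348, 2606 and 3477 in Caov-3, against 4687, 4185 and 4668 in SKOV-3, and GINS2 had 1096, 1376 and 1267 in Caov-3, against 1908, 1955 and 1824 in SKOV-3. Both GINS genes were called lower in Caov-3 without overlap of the arrays, at -0.53 for GINS1 and -0.60 for GINS2. GINS2 was not called when its probe sets were averaged (-0.36) or when only probe sets without an _x_at or _s_at suffix, which marks sets that can match several transcripts, were used (-0.45).

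The licensing factor CDC6, which with CDT1 loads the helicase onto origins, differed most among the replication genes. It had 603, 523 and 842 in Caov-3, against 1713, 2632 and 1819.5 in SKOV-3. All Caov-3 arrays lay below all SKOV-3 arrays, by -1.62 (SE 0.211, limma adjusted p = 0.000385), with SKOV-3 at 3.08 times the Caov-3 level. CDT1 was not called (0.11, adjusted p = 0.303). RFC3, a subunit of the complex that loads the sliding clamp, had 2422, 2510.2 and 2289 in Caov-3, against 4998, 5103 and 5098 in SKOV-3, a difference of -1.07 (SE 0.0756). RFC4, a subunit of the same loader, was not called at -0.01 (adjusted p = 0.881). The clamp itself, PCNA, had 15475, 17576 and 15275 in Caov-3, against 14089.6, 14375 and 11849 in SKOV-3, and was higher in Caov-3 by 0.26 (adjusted p = 0.0124). That call was lost when either untreated array was left out, at 0.21 in both cases.

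Of the genes of nucleotide supply, TYMS was higher and RRM1 lower in Caov-3, each by less than 1.5-fold through its brightest probe set. TYMS, the thymidylate synthase, had 26950.4, 28809.7 and 30334 in Caov-3, against 22512, 21524 and 23689 in SKOV-3, higher in Caov-3 by 0.35 (adjusted p = 0.00207), while its further probe sets stood at 0.19 and 1.42. RRM1, the large subunit of ribonucleotide reductase, had 6891, 8304 and 6259 in Caov-3, against 9274, 9369 and 9204 in SKOV-3, lower in Caov-3 at -0.39 (adjusted p = 0.00615). In both genes the arrays of the lines did not overlap, though the RRM1 call was lost without either untreated array (-0.30 in both cases). The thymidine kinase TK1 and the small reductase subunit RRM2 were not called, at 0.02 and 0.13, but the second RRM2 probe set stood at -0.72 and was called lower where it represented the gene (adjusted p = 8.3e-05). E2F1, the activator whose targets include many of these genes, had 409.9, 495 and 483 in Caov-3, against 431, 361 and 477 in SKOV-3, and the repressor E2F8 ranged from 755 to 987 in Caov-3 and from 901 to 1165 in SKOV-3. Neither E2F gene was called (0.13, adjusted p = 0.471, and -0.22, adjusted p = 0.216).

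CCNA2 and CCNB1, cyclins that drive entry into mitosis, were lower in Caov-3. CCNA2 had 1946, 1777 and 1677 in Caov-3, against 4179, 3933 and 3550.4 in SKOV-3. CCNB1 had 5594, 6793 and 5714 in Caov-3, against 10455, 10143 and 9652 in SKOV-3. Neither cyclin had overlapping arrays, and the log2 differences were -1.10 (SE 0.0769, limma adjusted p = 1.92e-05) and -0.74 (SE 0.0818, adjusted p = 0.000166). CCNB2, the second B-type cyclin, had 4033, 4749.9 and 4314 in Caov-3, against 5239, 5026 and 5390.4 in SKOV-3, a smaller difference of -0.26 (adjusted p = 0.0277). It was not called without either siltuximab array (-0.20) or without either untreated array (-0.23). The CCNB2 difference was -0.02, not called, when its probe sets were averaged, of which both further ones lie below the filter. Their kinase partner CDK1 had 8549, 12778 and 11037 in Caov-3, against 13058, 12764 and 13273 in SKOV-3. The Caov-3 IL-6 array just reached the SKOV-3 range, and CDK1 was not called (-0.29, adjusted p = 0.0528), but was called lower without either IL-6 array (-0.44), with the pseudocount of the median (adjusted p = 0.048), with the filter at the 75th percentile (0.0476), after quantile normalization (0.0194) and after cyclic loess (0.0306). CDC25C, the phosphatase that activates CDK1, was not called at 0.00 (adjusted p = 0.972). FOXM1, the transcription factor of G2 genes, went against its group: it had 4264, 4754 and 3915 in Caov-3, against 1755, 1801 and 2131 in SKOV-3, higher in Caov-3 by 1.18 (SE 0.113, adjusted p = 8.5e-05) with every array above. Its only probe set has an _x_at suffix, so FOXM1 has no reading without _x_at and _s_at probe sets.

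PLK1 and both Aurora kinases were lower in Caov-3. PLK1, which acts at entry and in spindle assembly, had 535, 483 and 534 in Caov-3, against 1170.3, 895 and 937 in SKOV-3. AURKA, the spindle pole kinase, had 5541, 6281 and 6431 in Caov-3, against 9453, 9533 and 9789 in SKOV-3, and its activator TPX2 had 5143, 5516 and 5451 in Caov-3, against 8489, 8028 and 8489 in SKOV-3. AURKB, the centromere kinase, had 1381, 1381 and 1262 in Caov-3, against 2920.3, 2327 and 2332 in SKOV-3. None of these 4 had overlapping arrays, with log2 differences of -0.92 for PLK1, -0.66 for AURKA, -0.63 for TPX2 and -0.90 for AURKB. AURKA has 1 probe set without an _s_at or _x_at suffix, and through it the difference was -0.03 and not called. That probe set was dim, at 179 to 207 over the arrays. The other further AURKA probe set, a bright _s_at set, stood at -0.57. TTK, the kinase that starts the spindle checkpoint, had 4095, 4097 and 3609.7 in Caov-3, against 1557, 1499 and 1372 in SKOV-3. Its difference was the most positive of the 43 genes, 1.40 on the log2 scale (SE 0.0783, adjusted p = 7.23e-06), with Caov-3 at 2.65 times SKOV-3.

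Of the other checkpoint genes, BUB1B and MAD2L1 were lower in Caov-3. BUB1B had 2294, 2671 and 2333 in Caov-3, against 4266, 3949 and 4198 in SKOV-3, and MAD2L1 had 5498, 7428 and 3951 in Caov-3, against 10113, 11589.8 and 6749 in SKOV-3. Both had a log2 difference of -0.76, but the MAD2L1 arrays overlapped, since the Caov-3 IL-6 array lay above the untreated SKOV-3 array. BUB1, another checkpoint kinase, was not called (-0.06, adjusted p = 0.623). CDC20, which the checkpoint holds back and which activates the anaphase-promoting complex, was not called at -0.16 (adjusted p = 0.0641), although all its Caov-3 arrays lay below the SKOV-3 arrays, and it was called when either IL-6 array was left out (-0.18). UBE2C, the ubiquitin-conjugating enzyme of that complex, had 3655, 3556 and 4223 in Caov-3, against 9541, 8835 and 9632 in SKOV-3, and its log2 difference of -1.29 (SE 0.0733, adjusted p = 7.78e-06) was the most negative of the mitosis genes.

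NDC80, CENPE, CENPF and the kinesin KIF20A were lower in Caov-3. NDC80, which binds microtubules at the kinetochore, had 3061, 3494 and 2939 in Caov-3, against 6218, 6327 and 5464 in SKOV-3. CENPE, a kinetochore motor, had 1343, 1517 and 1629 in Caov-3, against 2589.9, 2646 and 2672 in SKOV-3. CENPF, a kinetochore protein of G2 and mitosis, had 2622, 3022 and 3097 in Caov-3, against 3928, 4284 and 4760.1 in SKOV-3. The log2 differences were -0.92 for NDC80, -0.81 for CENPE and -0.57 for CENPF, without overlap of the arrays. KIF20A, a kinesin of cytokinesis, had 2292, 2710.0 and 2568 in Caov-3, against 4639, 4378 and 4847 in SKOV-3, a difference of -0.87. KIF11, the kinesin that separates the spindle poles, had 3661, 4012 and 3159 in Caov-3, against 3073, 3314 and 2825 in SKOV-3. Its arrays overlapped, and its difference was 0.23 (adjusted p = 0.0291). The KIF11 call was lost without either siltuximab array (0.22) or without either untreated array (0.26).

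The marker genes most used to count dividing cells gave different readings. TOP2A, the topoisomerase that untangles chromosomes, had 4592, 6244 and 4127 in Caov-3, against 10636, 11239.9 and 9948 in SKOV-3. Its Caov-3 arrays all lay below the SKOV-3 arrays, by -1.11 (SE 0.0961, limma adjusted p = 5.18e-05). MKI67, which encodes the Ki-67 antigen, had 3709, 3564 and 4007 in Caov-3, against 3486, 3419 and 4009.9 in SKOV-3. Its arrays overlapped through nearly their whole range, and it was not called (0.05, adjusted p = 0.567).

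**Figure D3:**
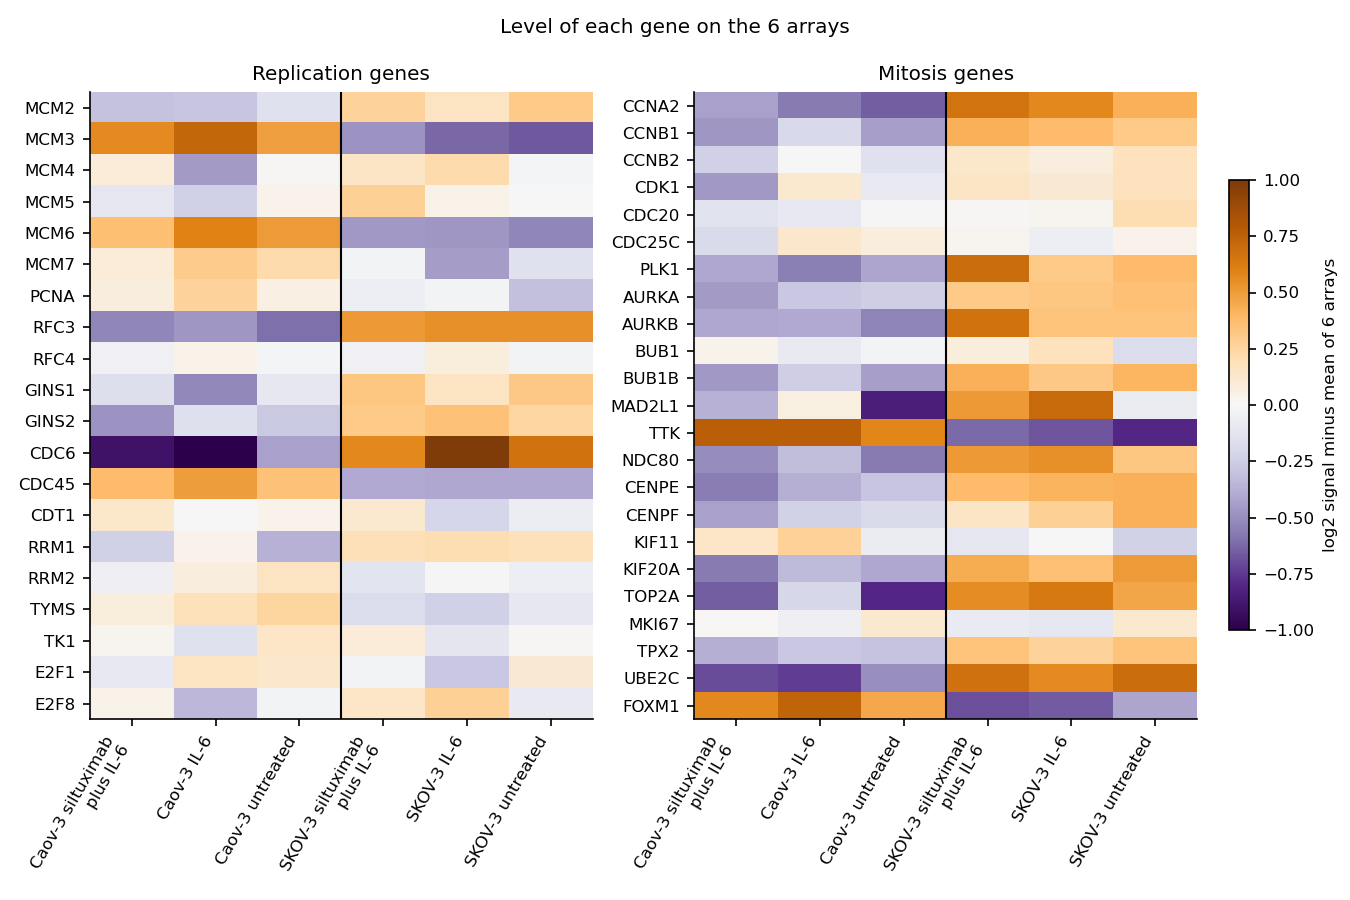
Log2 signal of each gene on the 6 arrays, minus its mean over them, with Caov-3 arrays left of SKOV-3 arrays (columns) and genes in rows. Colours stop at -1 and 1, and most mitosis genes are low on the 3 Caov-3 arrays, with TTK and FOXM1 high there.

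Further genes of the same pathways were counted from lists. Of 42 further replication genes, 11 were lower and 16 higher in Caov-3 (26.2% and 38.1%, near the 32.3% and 38.6% of all genes), with a median log2 difference of -0.07 that became 0.044 when either IL-6 array was left out. Of 59 further mitosis genes, 26 (44.1%) were lower and 15 (25.4%) higher, with a median of -0.16. Of 17 brakes and regulators of the cycle, 8 (47.1%) were lower and 5 (29.4%) higher, with a median of -0.16. The largest replication differences were those of TIMELESS, a fork protection factor (1.75), CHAF1B, a histone chaperone subunit (1.12), and RFC5, a clamp loader subunit (1.05), with the most negative being POLE3 (-0.96), UHRF1, which keeps DNA methylation through replication (-0.89), and DSCC1 (-0.78, but -0.03 and not called when its probe sets were averaged). POLE3, a polymerase subunit, had 3551, 1148 and 4020.3 in Caov-3, against 5206, 5508 and 4221 in SKOV-3, and with the Caov-3 IL-6 array left out its difference was -0.31. The POLE3 call (adjusted p = 0.0484) was lost under 5 alternatives, at adjusted p of 0.051 to 0.0732. Among further mitosis genes, FBXO5, the inhibitor of the anaphase-promoting complex known as EMI1, had 1213, 1447 and 879 in Caov-3, against 4071, 3979.8 and 2955 in SKOV-3 (-1.64). The kinetochore gene NUF2, whose protein pairs with NDC80, stood at -1.49 and CKAP2L at -1.48, while the spindle gene TACC3 (0.87), the cytokinesis kinesin KIF23 (0.85) and the centriole kinase PLK4 (0.78) were the highest, KIF23 turning to -0.26, not called, without _x_at and _s_at probe sets. Of the brakes, the antiproliferative BTG1 (-1.69), the pocket protein gene RBL1 (-1.63) and the CDK inhibitor CDKN1C (-1.45) were lowest in Caov-3, and CCNG2 (1.93), the CDT1 inhibitor GMNN (1.16) and a second CDK inhibitor, CDKN1B (0.71), highest. GMNN had 13056, 14846 and 12988 in Caov-3, against 6207, 5989 and 6014 in SKOV-3.

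Matches were then counted by the direction of the line difference. Of the 12 mitosis genes called lower in Caov-3 that have a promoter entry, 7 held a CHR match, against 4 of the 6 that were not called lower. Among replication genes, 5 of 6 called lower and 5 of 6 called higher held an E2F match.

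Within a line, few of these genes differed between treatments by 1.5-fold or more, and such folds compare 1 array with 1 array and have no test. With siltuximab plus IL-6 over IL-6, 0 of 43 genes reached 1.5-fold in Caov-3 (8.58% of all genes) and 1 did in SKOV-3 (6.57% of all genes). With siltuximab plus IL-6 over untreated, 0 reached it in either line, against 6.32% of all genes in Caov-3 and 8.38% in SKOV-3. With IL-6 over untreated, 3 of 43 reached it in Caov-3 (11.5% of all genes) and 1 in SKOV-3 (9.18% of all genes). The highest over the lowest of the 3 arrays of a line had a median over the 43 genes of 1.18 in Caov-3 and 1.13 in SKOV-3, against 1.23 and 1.20 over all genes. These comparisons with all genes are not matched for brightness. On all 6 arrays, 40 of the 43 lay above the 75th percentile, against 5362 of all 12290 genes. The part of brightness in the smaller folds was not tested. The median IL-6 fold over untreated, on the log2 scale, was 0.08 for mitosis genes and 0.07 for all genes in Caov-3, and -0.06 and -0.05 in SKOV-3. With siltuximab plus IL-6 over IL-6 the medians were -0.17 for mitosis genes, -0.09 for replication genes and -0.08 for all genes in Caov-3, and 0.03, 0.01 and 0.01 in SKOV-3. The treatment comparisons share the IL-6 array or the untreated array of their line.

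MAD2L1 encodes MAD2, the checkpoint inhibitor of CDC20. Through its brightest probe set it had the same order of arrays in both lines, highest with IL-6, lower with siltuximab before IL-6 and lowest untreated. From the signals given above, its IL-6 fold over untreated was 0.91 on the log2 scale in Caov-3 and 0.78 in SKOV-3. With siltuximab plus IL-6 the log2 fold was 0.47 over untreated in Caov-3 and 0.58 in SKOV-3, and relative to IL-6 it was -0.43 in Caov-3 and -0.20 in SKOV-3. In the limma fit over both lines the IL-6 difference was 0.84 (SE 0.0917), higher in 2 of 2 lines, but the adjusted p of 0.234 misses the threshold. That p is the smallest reached by any gene in this contrast, where 5 other genes tie with it. The further MAD2L1 probe sets gave smaller IL-6 folds, at 0.26 and 0.30 in Caov-3 and 0.24 and -0.05 in SKOV-3. The spiked poly-A controls had the order of the brightest MAD2L1 probe set. They stood at 1.18 times untreated with siltuximab plus IL-6 and 1.54 times with IL-6 in Caov-3, and at 1.02 and 1.55 times in SKOV-3. Their part in the MAD2L1 folds was not tested.

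CDC6 had IL-6 folds of opposite sign in the lines. It stood at 523 with IL-6, against 842 untreated, in Caov-3, and at 2632 with IL-6, against 1819.5 untreated, in SKOV-3, which is -0.67 and 0.53 on the log2 scale. With siltuximab plus IL-6 it had 603 in Caov-3, between the other arrays, and 1713 in SKOV-3, below both, at 0.20 and -0.61 relative to IL-6. The second CDC6 probe set, singled out after its values were seen, had 443, 372 and 668 in Caov-3, against 1536, 2886 and 1398 in SKOV-3, with IL-6 folds of -0.82 and 1.04. Whether the lines differ in this fold was not tested, as each line has 1 array per treatment.

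TOP2A had an IL-6 fold of 0.60 in Caov-3 and 0.18 in SKOV-3 through its brightest probe set, but -0.73 and -1.33 in Caov-3, and 0.26 and 0.36 in SKOV-3, through the other probe sets. MCM4 likewise had IL-6 folds of -0.47, -0.86, -1.14 and -0.49 over its 4 probe sets past the filter in Caov-3, against 0.24, -0.11, -0.22 and -0.27 in SKOV-3. Of the 36 further probe sets of these genes past the filter, 10 (27.8%) were at least 1.5-fold lower with IL-6 in Caov-3, close to the 22.8% of all further probe sets, and 0 were in SKOV-3, against 5.18% of all. The part of the low ACTB 5′ to 3′ ratio of that Caov-3 array in these folds was not tested.

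**Figure D4:**
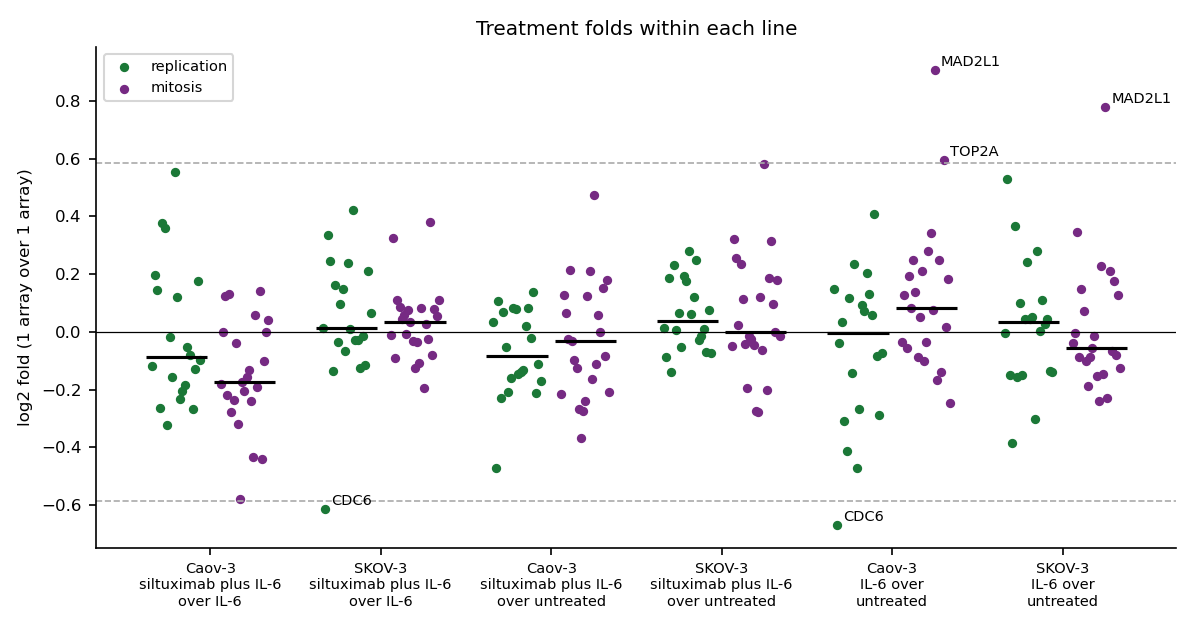
Log2 folds of 1 array over 1 array (vertical axis) for replication and mitosis genes in the 3 treatment comparisons of each line, with black bars at the medians and dashed lines at 1.5-fold. Labels name MAD2L1, TOP2A and CDC6, the genes beyond 1.5-fold.

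Over both lines together, limma called 0 of 12290 genes (0.0%) in each of the 3 treatment contrasts, with line as a factor. At an unadjusted p under 0.05, siltuximab plus IL-6 differed from IL-6 in 398 genes with 2 among the 43, siltuximab plus IL-6 from untreated in 705 with 2, and IL-6 from untreated in 1182 with 6. Of those 6, MAD2L1, TOP2A, KIF11, NDC80 and PCNA were higher with IL-6 and GINS1 lower. Without the SKOV-3 IL-6 array, the IL-6 contrast rests on the Caov-3 IL-6 array alone, the one with the low ACTB 5′ to 3′ ratio. IL-6 over untreated was then 0.93 for MAD2L1 and 0.58 for TOP2A through their brightest probe sets, and siltuximab plus IL-6 over IL-6 was 0.58 for MCM4. The further TOP2A probe sets had IL-6 folds of -0.73 and -1.33 in Caov-3. Without the Caov-3 IL-6 array, the same differences were 0.75 for MAD2L1, 0.19 for TOP2A and -0.09 for MCM4.

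Further probe sets of genes called between the lines had the same sign but not always the same size. All 19 further probe sets past the filter that belong to called genes (14 genes) had the sign of the brightest one, as in TOP2A with -1.75 and -0.85 beside -1.11, MAD2L1 with -0.85 and -0.52 beside -0.76, CDC6 with -1.90 beside -1.62 and CCNB1 with -1.15 beside -0.74. The difference was nearly gone through a further probe set of MCM6 (0.095 beside 0.97) and of AURKA (-0.03 beside -0.66). Both of these probe sets were dim, at 101 to 160 for MCM6 and 179 to 207 for AURKA. The brightest ones were at least 5221 for MCM6 and 5541 for AURKA on every array, and the other further AURKA probe set stood at -0.57. Signs differed within some genes that were not called. MKI67 had line differences of 0.05 through its brightest probe set and 0.67, -0.43 and 1.22 through the others. CDK1 had -0.29 through its brightest and 0.27, 0.27 and 0.14 through the others, and RRM2 had 0.13 and -0.72. MKI67, CDK1 and RRM2 have no settled direction between the lines.

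**Figure D5:**
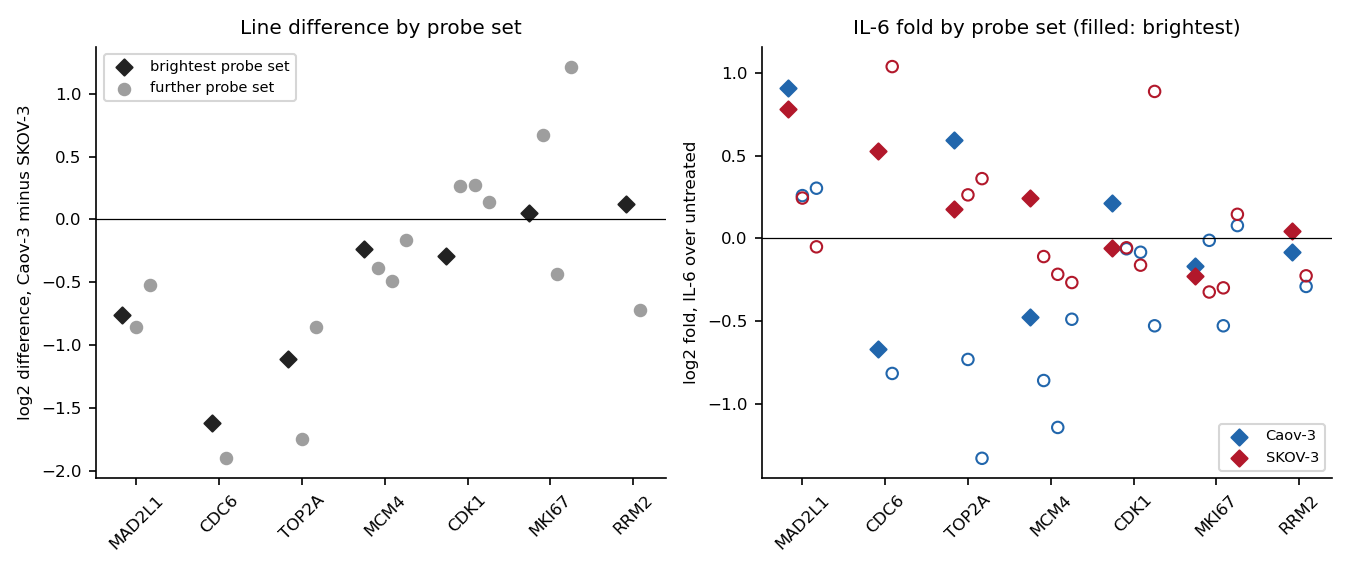
Line difference (left, log2 of Caov-3 minus SKOV-3) and IL-6 fold over untreated (right, log2) for each probe set past the filter of 7 genes, with diamonds for the brightest probe set. MAD2L1, CDC6 and TOP2A keep their sign between the lines in every probe set, while CDK1, MKI67 and RRM2 do not.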

How the data were processed

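Total RNA of 6 samples was measured on 6 arrays, 1 for each line and treatment, grouped by the sample titles. The deposited values are signal intensities on a linear scale, for which the submitters' processing notes name MAS5 and Affymetrix Expression Console. Tool versions: not given in the sources used here. No detection calls were used. The 54675 probe sets hold 62 controls, 41091 with 1 symbol, 1801 with several and 11721 with none; symbols come from the platform annotation, and 41037 were matched to current gene records with 0 changed.

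Values were taken as log2(signal + 17.06), the pseudocount being the 20th percentile of the named probe sets. Folds are on this scale, which understates changes of dim genes. A gene was its probe set of highest mean log2 signal, and was kept if at least 2 of 6 arrays were at or above that array's median (12290 of 19775 genes). limma 3.58.1 in R 4.3.3 (lmFit, eBayes with a trended prior) was fitted to the 6 arrays with line and treatment as factors, which leaves 2 residual degrees of freedom, and p-values were adjusted by Benjamini-Hochberg over all 12290 genes at 0.05. The script was tested on simulated data. Within a line, folds of 1 array over 1 array have no test. The number of arrays limits the precision.

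Per-array values are given for the genes called between the lines or at least 1.5-fold apart within a line, and for MCM2, PCNA, E2F1, CCNB1, FOXM1, TOP2A and MKI67. Of the further pathway lists, the 3 largest called differences in each direction are named. The members, gene lists and tests were chosen with earlier results of these data known. Alternatives were other pseudocounts and filters, quantile normalization, cyclic loess, the mean of all probe sets, probe sets without _x_at and _s_at suffixes, no treatment factor, and leaving out each array.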

Additional observations from a re-analysis of the deposited data

How the results depend on the processing

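Over 15 alternatives, 855 of 898 single-gene line differences kept their side of the threshold and, where called, their direction. Of the rest, 27 lost the call with their sign kept, 13 gained it with their sign kept, and 3 changed sign. Those 3 were called either in the main fit or in the alternative, but not in both. Of 411 counts and medians, 378 stayed within 1.5 times or within the residual spread. The sign changes were RRM2, not called in the main fit, at -0.30 when probe sets were averaged per gene and -0.72 without _x_at and _s_at probe sets (which leave 33 of 43 genes). KIF23, called in the main fit, stood at -0.26 and was not called under that last setting. Median line differences of all genes were 0.05 after quantile normalization and 0.10 after cyclic loess.

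Quantile normalization and cyclic loess each put 1 gene at least 1.5-fold apart for siltuximab plus IL-6 over IL-6 in Caov-3 and 1 for siltuximab plus IL-6 over untreated in SKOV-3. When probe sets were averaged per gene, the replication line median was -0.12. In Caov-3 the medians of siltuximab plus IL-6 over IL-6 were then 0.014 for replication and -0.0088 for mitosis, and the mitosis median of IL-6 over untreated was -0.038. In SKOV-3 the mitosis median of siltuximab plus IL-6 over untreated was 0.12. Without _x_at and _s_at probe sets, the line medians were -0.22 for replication, -0.86 for mitosis and -0.51 for brakes and regulators. The median of all 9517 genes then tested was 0.05. Of the brakes and regulators, 2 were called higher and 5 lower, and 7 further replication genes and 16 further mitosis genes were called lower. The share of all genes called was not counted under this setting, so these counts cannot be set against a background. In Caov-3 the replication median of siltuximab plus IL-6 over IL-6 was then 0.054 with 3 genes at least 1.5-fold apart, the mitosis median of siltuximab plus IL-6 over untreated 0.062 with 2 apart, and the replication median of IL-6 over untreated -0.11 with 5 apart. In SKOV-3, 2 genes were apart for siltuximab plus IL-6 over IL-6, 1 for siltuximab plus IL-6 over untreated (mitosis median 0.15) and 2 for IL-6 over untreated (mitosis median 0.062). Fewer of the genes described here, 33, are measured without _x_at and _s_at probe sets, and the cause of the other shifts was not tested. The share of all genes at least 1.5-fold apart was not counted under any of these alternatives. The counts of genes apart thus cannot be set against a background either.

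Leaving out 1 array at a time, limma called 0 to 1 of the 43 genes for siltuximab plus IL-6 over IL-6 and 0 to 2 for IL-6 over untreated, and between the lines 14 to 17 mitosis genes lower and 2 to 3 higher, with 6 replication genes lower throughout and 4 to 6 higher. The median line difference ranged from -0.071 to 0.044 for further replication genes and from -0.25 to -0.15 for brakes and regulators. A treatment left with 1 array is assumed to vary like the others. The treatment counts above 0 came only from leaving out the SKOV-3 IL-6 array, which leaves 1 IL-6 array. Genes outside the 43 were called in that fit too, against 0 of 12290 genes in the main fit. These treatment counts thus cannot be read as a result particular to the 43 genes. For the line difference, either array of a treatment gives the same estimate when left out. Among single genes, MKI67 was called higher in Caov-3 (0.38) and GINS2, CCNB2 and DSCC1 were lost (-0.36, -0.02 and -0.03) when probe sets were averaged per gene, MCM4 was called lower (-0.39) and TIMELESS lost (0.81) without _x_at and _s_at probe sets, and KIF11 was lost with no treatment factor (0.23). MCM7 was lost without either untreated array (0.43), and MCM5 called lower there (-0.34). The treatment factor matches the lines within each treatment, and without it 15 mitosis genes were again called lower. Signal over background limits the further probe sets, 8 of 44 of which fell below the filter.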
